A study of Mus musculus with 4 samples.

Results

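The miR-30 family was followed in HC11 cells as they were taken from proliferation to lactogenic differentiation. The family was represented by its guide strands, the arms that are loaded into the silencing complex. The members were the 5 probes named exactly mmu-miR-30a, mmu-miR-30b, mmu-miR-30c, mmu-miR-30d and mmu-miR-30e, of 700 miRNA probes on the array, and all 5 were found in the scanner tables and in the authors' deposited value table. HC11, a clonal line of mouse mammary epithelium that keeps properties of stem cells, makes milk proteins once lactogenic hormones are added. For the differentiated cells, epidermal growth factor was withdrawn and serum lowered to 2% for 48 h, after which ovine prolactin at 1 µg/mL and dexamethasone at 100 nM were present for 72 h. The proliferating cells stayed in medium with 10% serum and the growth factor until collection at 48 h, and the base for both was RPMI with insulin, L-glutamine and gentamicin. Each stage had 2 samples, from a single line, and the comparison asked which miRNAs differ between the differentiated and the stem-like stage. Array 1 carried differentiated sample 1 in Cy5 and proliferating sample 1 in Cy3, and array 2 carried differentiated sample 2 in Cy3 and proliferating sample 2 in Cy5. Nothing in the labels ties the 2 samples of a stage to separate cultures. The p-values therefore reflect the spread of these samples alone, and that spread may be technical. Each p-value and SE also draws on the spread of all tested probes, not only on that of its own probe.

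MicroRNAs guide the silencing complex to messenger RNAs through base pairing that centres on the seed, the bases next to the 5′ end. Members of the miR-30 family share 1 seed and differ mainly in the 3′ part, so their predicted targets overlap widely. In mice the guides are made from 6 genes in 3 pairs, and miR-30c is made from 2 of these genes. The family is known for restraining factors of the epithelial-to-mesenchymal transition such as Snai1, it is reported as low in human breast tumour-initiating cells, and overexpression of miR-30b in the mammary gland of transgenic mice was reported to disturb lactation and involution.

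The mature sequences are shown because the probes of the family have to tell close relatives apart. Entries of the RefSeq table (GRCm38.p6) were matched for 3 of the 5 members and for 4 passenger strands, the opposite arms of the same hairpins, and each was identical to the target that the array files give for that probe. Capitals mark the seed, bases 2 to 8 from the 5′ end.
mmu-miR-30a: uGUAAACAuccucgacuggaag
mmu-miR-30e: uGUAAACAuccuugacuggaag
mmu-miR-30c: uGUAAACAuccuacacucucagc
mmu-miR-30a*: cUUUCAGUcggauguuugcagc
mmu-miR-30e*: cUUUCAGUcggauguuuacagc

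The first and second guides differ by the single substitution C13U, written from mmu-miR-30a to mmu-miR-30e and counted from the 5′ end. By the targets in the array files, all 5 members had the same seed, with mmu-miR-30a 1 edit away from both mmu-miR-30d and mmu-miR-30e, and mmu-miR-30d 2 edits away from mmu-miR-30e. The targets of mmu-miR-30b and mmu-miR-30c were 3 edits apart and had their first 18 bases in common, while they were 6 to 8 edits away from the other three. Probes of such close targets can share signal, and how much they did so was not tested. No other probe on the array had a target within 3 edits of a member. One more probe had the same seed, mmu-miR-384-5p, whose target is 8 edits away from its nearest member. It was detected in none of the 4 samples, with 0 of 5 spots above the limit in each.

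In the RefSeq annotation of GRCm38.p6 the guide of mmu-miR-30a lies at chr1:23272274-23272295 on the plus strand, in the miRNA gene Mir30a. The guide of mmu-miR-30c lies at chr1:23291714-23291736 on the plus strand, in Mir30c-2, and again at chr4:120769584-120769606 on the minus strand, in Mir30c-1. The guide of mmu-miR-30e lies at chr4:120772660-120772681 on the minus strand, in Mir30e. Mir30c-1 and Mir30e both lie within the span of Nfyc, the gene of a subunit of the CCAAT-binding factor NF-Y. Mir30b and Mir30d are neighbouring miRNA genes on chromosome 15. No annotated gene lies between the members of any of the 3 pairs. One probe reads mmu-miR-30c from both of its genes, so its signal cannot be assigned to either pair.

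Every member was detected in every sample, each with 5 of 5 spots above the limit. The limit was the mean of the empty spots plus 3 SDs, both on intensity over the local background. It was 7.75 and 156.5 in the differentiated samples, against 13.2 and 53.7 in the proliferating ones, so detection is read against unequal limits. Each sample had at least 138 of the 700 probes detected. With background included, the mean of the empty spots was 39.1 and 287.8 intensity units for the differentiated samples, against 152.5 and 86.2 for the proliferating ones. The brightest spot of any member read 18252, in differentiated sample 2, where the brightest miRNA spot read 49854. In differentiated sample 1 these were 7181 and 58595. Of 7 epithelial markers fixed for this check, 6 were detected in both differentiated samples, against 5 and 4 in the proliferating ones, and miR-141 was detected in none. The summed intensity of these 7 over background, not normalized, was 18402 and 44601 in the differentiated samples, against 5793 and 5159 in the proliferating ones. The markers did not move alike. In the test described below, miR-200a, miR-200b and miR-429 were called higher after normalization, and miR-200c, miR-203 and miR-205 were not called. The log2 ratios on arrays 1 and 2 were 3.54 and 3.76 for miR-200a, against -0.17 and 0.57 for miR-205. Of 4 mesenchymal markers, miR-143 and miR-145 were detected in both differentiated samples and in neither proliferating one, while miR-199a-3p and miR-214 were detected nowhere. The summed intensity of these 4 over background, also not normalized, was 105 and 680 in the differentiated samples, against 24.7 and 57.8 in the proliferating ones. The part of either sum in the results on miR-30 was not tested. No endothelial or neuronal marker was detected. Of 5 blood markers only miR-486 was detected, in 1 sample of each stage. Of 4 muscle markers only miR-206 was detected, in 1 differentiated sample and both proliferating ones, and the liver marker miR-122 was detected in 1 proliferating sample. In bulk RNA, more cells holding a miRNA and more of it per cell cannot be told apart.

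mmu-miR-30b, mmu-miR-30c and mmu-miR-30d were higher in the differentiated cells, mmu-miR-30b by 5.33-fold and the other two by 2.21-fold and 2.46-fold. mmu-miR-30a and mmu-miR-30e had ratios in the same direction, 1.85-fold and 2.22-fold, that did not pass the test. No member was called lower. A probe was tested when 1 stage or both had it detected in each sample, which 172 probes met. Of these, 16.9% were called higher and 13.4% lower at a limma adjusted p under 0.05, against 3 and 0 of the 5 members. The 5 members had a median log2 ratio of 1.15, and all tested probes had one of 0.11. Both differentiated samples read above both proliferating samples for all 5 members after normalization, which was the case for 34.9% of the tested probes. Each ratio is relative to the bulk of miRNA probes. Normalised intensity is the mean of 5 spots on each array after background correction, with the constant of 50 included, and scaling within and between arrays.

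mmu-miR-30b, the member with the largest ratio, is the one whose excess was reported to disturb the mouse mammary gland. Its normalised intensity was 7221 and 7780 in the differentiated samples, against 1398 and 1415 in the proliferating ones. The stages were far apart and the samples of a stage lay close together. Its log2 ratio, differentiated over proliferating, was 2.37 on array 1 and 2.46 on array 2, with a mean of 2.41 ± 0.06 (SD, n = 2 arrays; SE 0.18; limma adjusted p = 0.0103). The 5 spots gave log2 ratios of 2.22 to 2.64 on array 1 and 2.30 to 2.61 on array 2. It ranked 16 from the highest of the 172 tested probes. In the authors' deposited table its values were 6996 and 7961 in the differentiated samples and 1165 and 1522 in the proliferating ones, on a scale that is not stated.

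mmu-miR-30d is made from the gene next to that of mmu-miR-30b and is known in human melanoma for promoting spread. Its normalised intensity was 2797 and 3305 in the differentiated samples, against 1343 and 1139 in the proliferating ones, again with no overlap. The log2 ratio was 1.06 on array 1 and 1.54 on array 2, with a mean of 1.30 ± 0.34 (SD, n = 2 arrays; SE 0.22; limma adjusted p = 0.0369). All 10 spot ratios were above 0, between 0.99 and 1.67. The call was lost when all 700 probes were tested with no filter (adjusted p = 0.108) and with a mean-dependent prior in limma (adjusted p = 0.0569).

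mmu-miR-30c, reported in human breast cancer cells to lower resistance to chemotherapy, had a normalised intensity of 4443 and 5690 in the differentiated samples, against 2134 and 2426 in the proliferating ones. The stages did not overlap, and within each stage the sample of array 2 read higher than that of array 1. The log2 ratio was 1.06 on array 1 and 1.23 on array 2, with a mean of 1.14 ± 0.12 (SD, n = 2 arrays; SE 0.18; limma adjusted p = 0.0315). Its spot ratios ran from 0.99 to 1.30 on array 1 and from 1.06 to 1.36 on array 2. With a mean-dependent prior it was not called (adjusted p = 0.0723). In unpaired fits its log2 ratio was 0.97 without differentiated replicate 2 and 1.05 without proliferating replicate 1.

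**Figure D1:**
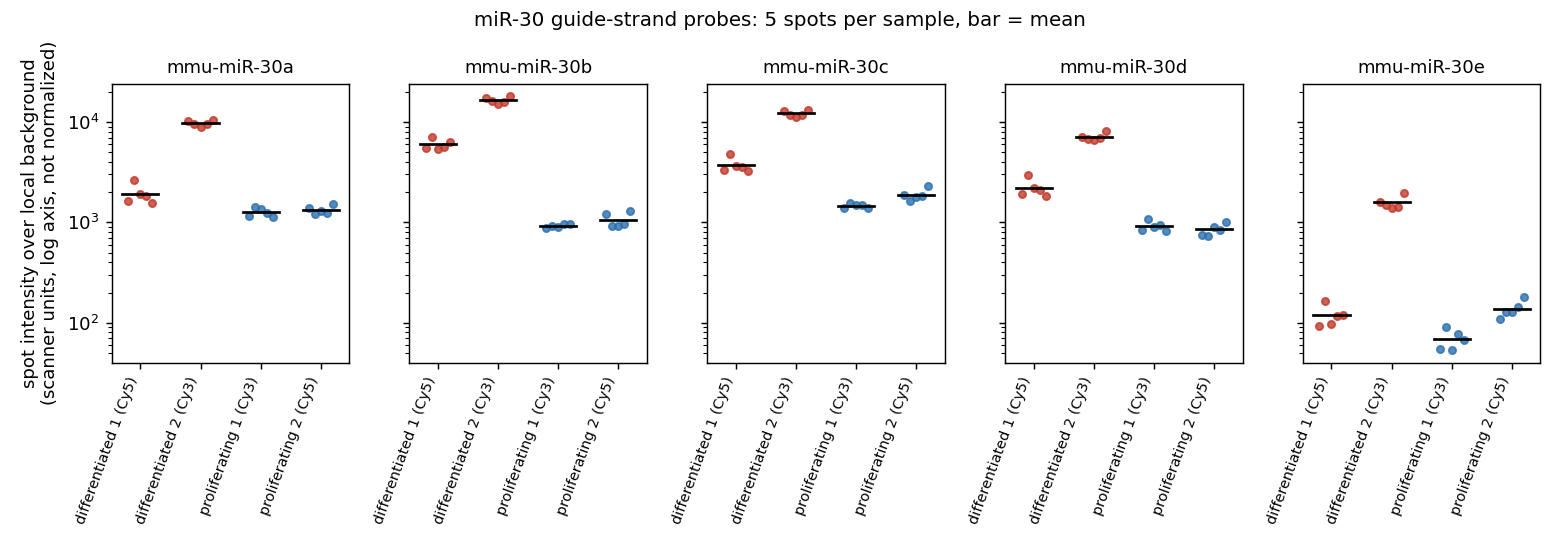
Intensity over the local background of the 5 spots of each miR-30 guide-strand probe, in scanner units on a log axis and before normalization, with a bar at the mean and the dye under each sample. Red points are differentiated samples and blue points proliferating ones; differentiated sample 2 reads highest in every panel, and only for mmu-miR-30e does differentiated sample 1 fall below a proliferating sample.

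mmu-miR-30a, which restrains the autophagy factor Beclin 1 in human cells, read 2472 and 4615 in normalised intensity in the differentiated samples, against 1867 and 1778 in the proliferating ones. The proliferating samples were close, and the differentiated ones were not. The log2 ratio was 0.40 on array 1 and 1.38 on array 2, with a mean of 0.89 ± 0.69 (SD, n = 2 arrays; SE 0.33; limma adjusted p = 0.138). Within an array the 5 spots lay closer together, at 0.29 to 0.66 on array 1 and 1.28 to 1.46 on array 2, so the 5 spots of an array spread less than the arrays differed. The call depended on the processing, and 7 of 17 alternatives called it higher. Among these, a constant of 16, median centring, spike centring, loess on detected probes and the filter on signal gave all probes the same error. The gap between arrays did not enter there, and spike centring also called 80.2% of all tested probes higher. In the 4 unpaired fits that left out 1 sample, its log2 ratio was 1.34 without differentiated replicate 1 and 0.44 without differentiated replicate 2. It was 0.93 without proliferating replicate 1 and 0.86 without proliferating replicate 2.

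mmu-miR-30e was used in work on human breast tumour-initiating cells, where its return reduced self-renewal. Among the members its signal lay closest to the detection limit. Its normalised intensity was 293 and 758 in the differentiated samples, against 176 and 256 in the proliferating ones. Before normalization its intensity over background was 119 and 1581 in the differentiated samples and 68.6 and 138 in the proliferating ones, so there the stages overlapped. The log2 ratio was 0.74 on array 1 and 1.57 on array 2, with a mean of 1.15 ± 0.58 (SD, n = 2 arrays; SE 0.29; limma adjusted p = 0.0762). This mean was as large as that of mmu-miR-30c, and the gap between the arrays was wider. A constant of 50 was added to each background-corrected intensity, which understates the ratios of dim probes, and with 16 in its place the ratio of mmu-miR-30e was 1.30. It was called there (limma adjusted p = 0.000460), and mmu-miR-30a was called there too at a nearly equal ratio of 0.90. The prior of limma was infinite in that setting, so a member's own gap between arrays did not enter. The part of the ratio and of the prior in the call was not tested. mmu-miR-30e was called higher in 10 of 17 alternatives, which included all 7 with an infinite prior. In unpaired fits its log2 ratio was 1.84 without differentiated replicate 1 and 1.42 without proliferating replicate 2. It was 0.47 without differentiated replicate 2 and 0.88 without proliferating replicate 1.

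In the authors' deposited table mmu-miR-30c had 4458 and 5747 in the differentiated samples, against 1846 and 2664 in the proliferating ones. There mmu-miR-30d had 2526 and 2550 in the differentiated samples, against 1348 and 1452 in the proliferating ones, and these did not overlap. For mmu-miR-30e the deposited values were 186 and 551 in the differentiated samples, against 112 and 184 in the proliferating ones. In the same deposited table mmu-miR-30a had 1993 and 4138 in the differentiated samples and 1698 and 2036 in the proliferating ones, so differentiated sample 1 lay between the proliferating samples. Before any normalization, differentiated over proliferating intensity was 6.44-fold on array 1 and 15.5-fold on array 2 for mmu-miR-30b. It was 1.51 and 7.27 for mmu-miR-30a, 2.52 and 6.43 for mmu-miR-30c, 2.40 and 8.38 for mmu-miR-30d, and 1.74 and 11.5 for mmu-miR-30e. All 5 were thus higher in the differentiated channel of both arrays before scaling, by more on array 2. These folds still hold any difference in brightness between the channels. Empty spots, with background included, averaged 39.1 and 152.5 in the differentiated and proliferating channels of array 1, and 287.8 and 86.2 on array 2. The share of all tested probes with such folds was not computed, and the part of channel brightness in them was not tested.

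All 5 members had a higher ratio on array 2 than on array 1, as did 64.5% of the 172 tested probes. The gap was 0.97 for mmu-miR-30a, 0.83 for mmu-miR-30e, 0.48 for mmu-miR-30d, 0.17 for mmu-miR-30c and 0.09 for mmu-miR-30b, on the log2 scale and as array 2 minus array 1, against a median of 0.19 over all tested probes. The 3 members with the widest gaps were those with 1 or 2 edits between their targets, and the 2 with the narrowest were those that have their first 18 bases in common. This grouping was seen in the values and was not tested. The arrays differ in dye orientation as well as in samples, so a dye effect of a probe and a difference between replicates cannot be told apart.

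**Figure D2:**
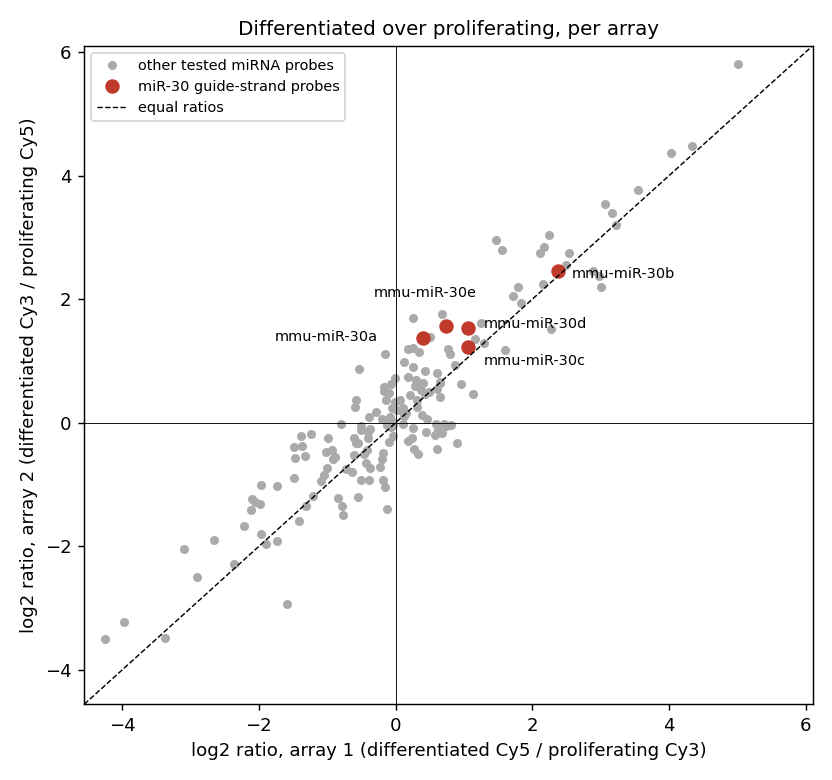
Log2 ratio of differentiated over proliferating cells on array 1 (x axis) and array 2 (y axis) for the 172 tested probes, with the 5 miR-30 guide-strand probes in red and a dashed line where both arrays are equal. mmu-miR-30b lies near the line at 2.37 and 2.46, and mmu-miR-30a lies farthest above it among the members, at 0.40 and 1.38.

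Read by gene pairs, the neighbours on chromosome 15 differed most. The log2 ratio of mmu-miR-30b exceeded that of mmu-miR-30d by 1.31 on array 1 and 0.92 on array 2 (mean 1.12 ± 0.27, SD, n = 2 arrays). mmu-miR-30c minus mmu-miR-30e, neighbours within Nfyc, gave 0.32 on array 1 and -0.34 on array 2, with a mean of -0.01 ± 0.46. mmu-miR-30a minus mmu-miR-30c, of the pair on chromosome 1, gave -0.65 and 0.15, with a mean of -0.25 ± 0.57. Of the 3 pairs the first alone had the same sign on both arrays. Across pairs, mmu-miR-30b also exceeded mmu-miR-30c, its nearest relative in sequence, by 1.31 and 1.23. An exact sign-flip test over 2 arrays cannot go below p = 0.5, two-sided, and no other test of these differences was run. Intensities were not compared between probes because each probe has its own response.

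The passenger strands of the family lay near or below the detection limit. Of the 6 passenger names looked for, 5 had a probe, and mmu-miR-30a* alone was detected in all 4 samples. Its normalised intensity was 139 and 172 in the differentiated samples and 127 and 160 in the proliferating ones, and its log2 ratio was 0.12 ± 0.01 (SD, n = 2 arrays; limma adjusted p = 0.644). mmu-miR-30e* had 4 of 5 spots above the limit in both differentiated samples and 0 of 5 in both proliferating ones. Its log2 ratio was 0.33 and was not called (limma adjusted p = 0.255). A lower bound taken from the means, with no error attached, was 1.10-fold, so a rise is not established. This bound sets the mean of the bright stage against, per sample of the dim stage, the higher of the lowest detected signal and the probe's own. mmu-miR-30b* had 5 and 1 spots above the limit in the differentiated samples and 3 and 0 in the proliferating ones. mmu-miR-30c-2* had 4 and 0 in the differentiated samples and 5 and 0 in the proliferating ones, and mmu-miR-30c-1* had 1 and 0, against 0 and 0. These 3 were detected in both samples of neither stage and were not tested, and neither tested passenger strand was called. For the dim passenger probes the added constant keeps any ratio small.

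**Figure D3:**
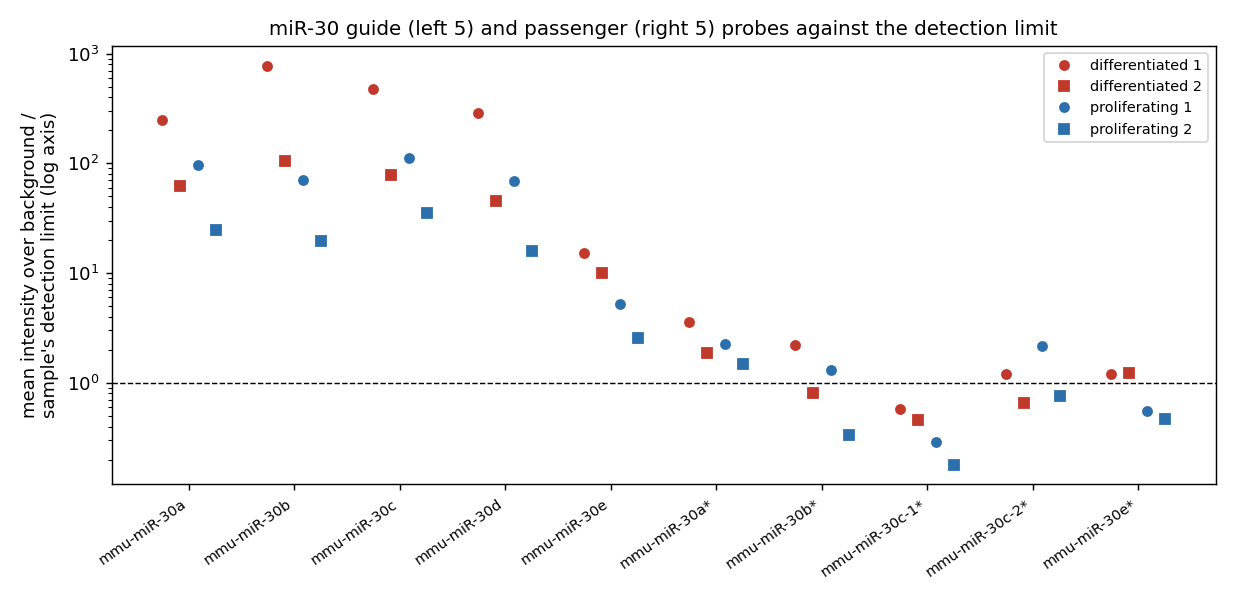
Mean intensity over background divided by the detection limit of its own sample (log axis) for the 5 guide probes on the left and the 5 passenger probes on the right, with differentiated samples in red, proliferating ones in blue, circles for array 1 and squares for array 2. Points above the dashed line exceed the limit: all guide points do, and among the passenger probes only mmu-miR-30a* does so in all 4 samples.

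Other miRNA families that are described, like miR-30, as rising when tissues differentiate were set beside it. The miR-200 family, which maintains the epithelial state, had 3 of 4 tested members higher and a median log2 ratio of 2.05, with mmu-miR-200b at 2.67 ± 0.30 (SD, n = 2 arrays). In the miR-26 family 2 of 2 were higher, with a median of 2.28 and mmu-miR-26a at 1.89 ± 0.53. The let-7 family, known for its rise in differentiating cells, had 1 of 9 higher and a median of 0.34, with mmu-let-7c at 0.26 ± 0.59. The miR-29 family had 0 of 2 higher and a median of 0.15, with mmu-miR-29a at -0.28 ± 0.18. No member of these 4 lists was called lower. The difference between families was not tested, and the counts are a description beside the 16.9% of all tested probes called higher.

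The 4 probes whose ratios on the 2 arrays were nearest to the mean of the 5 members, at 1.13 and 1.63, were mmu-miR-429, mmu-miR-152, mmu-miR-10a and mmu-miR-15a, by Euclidean distance over 2 arrays among 165 other tested probes. mmu-miR-429 was closest, at a distance of 0.12, with log2 ratios of 1.25 and 1.61. The distances of mmu-miR-152, mmu-miR-10a and mmu-miR-15a were 0.27, 0.39 and 0.46. The first 3 of the 4 were called higher and mmu-miR-15a, at 0.68 and 1.76, was not (limma adjusted p = 0.0963).

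The reference against which a ratio is read changed its size for all members. Spike control probes, whose added amounts are not known here, read lower in the differentiated channel, with a mean log2 ratio of -1.37 on array 1 and -1.43 on array 2. The 5S rRNA probes had means of -0.35 and -1.27. Centred on the spikes, all 5 members were called higher, with log2 ratios of 2.29 for mmu-miR-30a to 3.81 for mmu-miR-30b, but so were 80.2% of all tested probes, and the median of all tested probes was 1.51. Spike centring moves all probes of an array by the same amount, so the median member stayed 1.04 above that median by construction. In every setting run, all 5 members had a ratio above the median of the tested probes. By definition a median has as many tested probes above it as below. Many of the settings could not change a ratio, so they are not separate evidence.

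**Figure D4:**
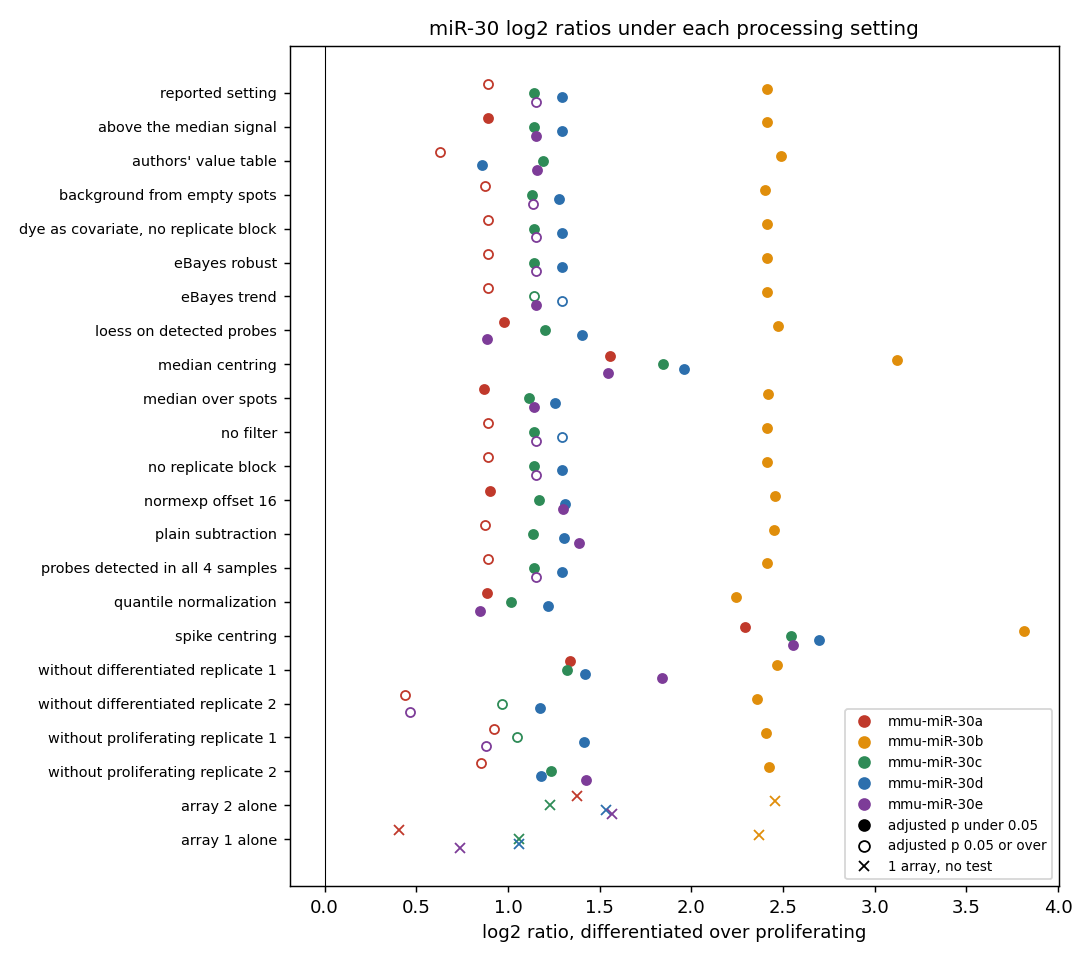
Log2 ratio of differentiated over proliferating cells for the 5 members (colours) under the reported setting, at the top, and each alternative, with filled points at an adjusted p under 0.05, open points at or over it, and crosses for 1 array with no test. mmu-miR-30b stays the highest member in each setting, from 2.24 with quantile normalization to 3.81 with spike centring, and no point lies below 0.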

How the data were processed

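Total RNA of 4 HC11 samples was run on 2-colour miRNA arrays by a service provider, per the labels' protocols. Each deposited scanner file holds 1 dye channel, as mean intensity per spot, with background included and no normalization, per the file headers, for 3968 spots, of which 3500 belonged to 700 miRNA probes in 5 spots each. The authors also deposited a table of processed intensity per probe, whose scale and centring are unknown; its columns had medians of 15.1, 13.9, 13.9 and 13.6 for differentiated 1, differentiated 2, proliferating 1 and proliferating 2, and each tracked its own sample best over the tested probes (r of log2 values 0.985 to 0.997). Image software and genome build were not given in the sources used here.

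Same-numbered samples were taken as 1 array. Across 118 probes detected everywhere, deviations of single spots from their probe's mean correlated at 0.812 and 0.675 between same-numbered samples and at 0.124 to 0.209 between the others; this is a description across 590 spots. The background was the 20th percentile of the spots within 7 rows and columns. Detection required 3 of 5 spots above the mean of the 180 empty spots plus 3 SDs, all on intensity over this background. Correction used normexp with offset 50, then loess within arrays (span 0.3, controls at weight 0), spot averaging, and lmFit with eBayes in limma 3.58.1 (R 4.3.3), two-sided, with Benjamini-Hochberg adjustment over all 172 tested probes, 1 residual and 2.08 prior degrees of freedom. Intensities per sample are after loess and Aquantile. With 2 samples a stage and the array pairing ignored, the smallest exact permutation p is 0.333. An exact sign-flip test over the 2 arrays, which keeps the pairing, cannot go below p = 0.5, two-sided. Precision is limited by having 2 arrays. The members, lists, tests and alternatives were chosen with earlier results of these data known. Probes were named as the members, their passenger strands, the 4 nearest probes, and 1 example per list by signal; some markers were named after their values were seen.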

Additional observations from a re-analysis of the deposited data

How the results depend on the processing

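No member was called lower in any setting, and no ratio changed its sign. Settings that changed only the filter, the threshold or the limma fit could not change a ratio. mmu-miR-30b was called in each tested setting except at a threshold of 0.01, where 0 members were called (log2 ratios still 2.41, 1.14 and 1.30 for mmu-miR-30b, mmu-miR-30c and mmu-miR-30d). With eBayes trend 1.14 for mmu-miR-30c and 1.30 for mmu-miR-30d missed the threshold and 1.15 for mmu-miR-30e passed it (adjusted p = 0.0494); with no filter 1.30 for mmu-miR-30d missed it. All 5 members were called with 7 alternatives, where mmu-miR-30a and mmu-miR-30e were at 0.89 and 1.15 above the median signal, 0.98 and 0.89 when loess was fitted to detected probes, 1.56 and 1.55 with median centring, 0.87 and 1.14 with the median over spots, 0.90 and 1.30 with offset 16, 0.88 and 0.85 with quantile normalization, and 2.29 and 2.55 with spike centring. mmu-miR-30e was also called at 1.39 with plain subtraction and 1.16 with the authors' table, where mmu-miR-30a was at 0.63. In 7 of 17 alternatives limma estimated an infinite prior, so each probe got the same error and a member's own gap between arrays did not enter. These were not the same 7 alternatives. The median over spots and quantile normalization called all 5 members with finite priors, of 10.0 and 22.2 degrees of freedom. Plain subtraction and the authors' table had infinite priors and called 4 members. The cause of the changes in calls was not tested. Without the replicate block 3 members were called higher, with the same ratios (adjusted p = 0.000140, 0.0128 and 0.00606 for mmu-miR-30b, mmu-miR-30c and mmu-miR-30d), and it changed no call of a member.

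Leaving out 1 array, with no test, or 1 sample of the unpaired fit, which assumes the same spread in both stages, gave 0.40 to 1.38 for mmu-miR-30a, 2.36 to 2.47 for mmu-miR-30b, 0.97 to 1.32 for mmu-miR-30c, 1.06 to 1.54 for mmu-miR-30d and 0.47 to 1.84 for mmu-miR-30e. Each of the 4 fits without 1 sample left 1 sample in a stage, and in 2 of them limma's prior was infinite. Calls from these fits are therefore not counted here.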
